A study of Mus musculus with 22 samples.

Results

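Cytosolic ribosomal protein genes are the genes of the proteins that, with ribosomal RNA, build the small and the large subunit of the ribosome outside mitochondria. They were chosen by name: a protein-coding mouse gene was a member if its symbol was Rpl or Rps followed by a number and at most one letter a, x or l, or was Rplp0, Rplp1, Rplp2 or Rpsa. Of 38924 gene IDs in the deposited tables, 80 were members, 31 of the small and 49 of the large subunit. Of these, 76 were core ribosomal proteins and 4 were paralogues of a core gene (Rpl3l, Rpl10l, Rpl39l and Rps27l). Of 83 symbols that fit the naming pattern, Rpl6l, Rps4l and Rpl32l were left out because they are annotated as pseudogenes. Genes that encode ribosomal proteins under other names, such as Fau and Rps3a1, fell outside the rule and were kept as a separate list.

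The study measured messenger RNA in whole spinal cord of mice aged 7 months on a B6N;B6J background that all groups shared. The mice were homozygous for the E196K change in Yars (HOM, 10 libraries), carried 1 changed copy (E196K/+, HET, 6 libraries) or were wild type (WT, 6 libraries). Yars encodes tyrosyl-tRNA synthetase, the enzyme that loads tyrosine on its tRNA, and changes in the human gene cause a form of Charcot-Marie-Tooth disease, a peripheral nerve disease. The labels do not say that each library came from a separate animal, so the p-values measure only the spread between these libraries, which may be technical.

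Ribosomal protein genes are transcribed in every cell and are among the most abundant short messenger RNAs of a tissue. Most of their products enter each ribosome as a single copy, excess protein is degraded, and most of their messages start with a cytosine and a run of pyrimidines, the TOP motif, through which mTOR and Larp1 set how well they are translated. The mouse genome also holds many processed pseudogenes of these genes, intronless copies made from their messages, and short reads can match a gene and its copies equally well.

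Library totals ran from 24448509 to 42806010 counts. The level of the Yars message is no check of the genotype labels, since the change alters an amino acid. HOM replicate 3 stood apart by markers of tissue next to the cord: the summed level of 6 Schwann cell and peripheral myelin genes reached 2287 CPM (counts scaled to a common library total) in that library, against a median of 3.42 CPM over the 10 HOM libraries, and its 5 fibroblast and meningeal genes summed to 481 CPM, against a highest sum of 109 CPM in WT. Its 5 blood genes summed to 1403 CPM, against at most 352 CPM in WT, and its 4 skeletal muscle genes to 11.8 CPM, against at most 0.732 CPM in WT. Blood sums above the WT range were also found in HOM replicate 9 (799 CPM), HOM replicate 7 (547 CPM) and HET replicate 6 (414 CPM). The markers of neurons, oligodendrocytes, astrocytes and microglia that fit the labelled tissue were all present in every library. Their sums were lowest of the 22 libraries in HOM replicate 3, at 3535 CPM for neurons, 12852 CPM for oligodendrocytes, 1379 CPM for astrocytes and 138 CPM for microglia. In bulk tissue, fewer cells of a type and less RNA per cell cannot be told apart.

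The start sites and near-identical copies of the members were examined first, because they bear on what a count for a member means. A RefSeq record of the promoter (GRCm38.p6, 250 bases before to 50 bases after the start) was matched by symbol for 60 of the 80 members. A run of at least 8 pyrimidines that began with C and lay within 20 bases of the annotated start was found in 29 of the 60 members (48.3%), against 2630 of 17432 other protein-coding genes (15.1%). Runs of at least 10 bases were found in 33.3% of members and in 6.9% of the others, and runs of at least 5 bases in 48 of the 60 members and in 51.3% of the others. The annotated start base itself was C in 31.7% of members, against 16.1% of the other genes. The 6 members with the highest TPM (a level scaled to transcript length and library total) among those with a record are shown from 30 bases before the start to 19 after it, 5′ to 3′, with the longest C-led run within 20 bases of the start in capitals.

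Rpl13a, chr7:45128726-45128775, minus strand: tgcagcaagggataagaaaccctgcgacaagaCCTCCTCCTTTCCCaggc
Rps24, chr14:24490648-24490697, plus strand: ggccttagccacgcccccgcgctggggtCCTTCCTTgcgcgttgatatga
Rps21, chr2:180257349-180257398, plus strand: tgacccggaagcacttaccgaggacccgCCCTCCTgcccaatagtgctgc
Rps15, chr10:80292401-80292450, plus strand: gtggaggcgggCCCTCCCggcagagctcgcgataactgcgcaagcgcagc
Rpl38, chr11:114668550-114668599, plus strand: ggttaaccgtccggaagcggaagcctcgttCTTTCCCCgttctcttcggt
Rpl26, chr11:68901536-68901585, plus strand: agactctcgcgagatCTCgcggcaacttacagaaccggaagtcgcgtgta

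The run of Rpl38 began at the RefSeq start and that of Rps24 began 2 bases before its own RefSeq start. That of Rpl13a, at 14 bases the longest of the 6, began 2 bases after the start, and Rpl26 had no run above 3 bases within 20 bases of the RefSeq start. GENCODE M21, the source of the gene positions, gives another start for each of the 6. There Rpl26 starts further downstream, at 68901583, as does Rps15, at 80292453. The other genes start further upstream: Rps24 at 24487125, Rpl38 at 114668524, Rps21 at 180257377 and Rpl13a, on the minus strand, at 45128761. No search was made around those starts. Over all 300 bases and both strands, the letters CCGGAAG, the core bound by ETS family factors, were found in 41.7% of members, against 12.8% of the other genes. GGGCGG, bound by Sp1, was found in 36 of the 60 members and 49.2% of the others, AAGATGGC in 8.3% and 3.6%, TATAAA in 10.0% and 14.8%, and CACGTG in 10.0% and 8.9%. These matches describe letters and are no sites.

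Many counts of the family lay on copies of the members. Genes whose transcript matched at least 50% of a member's coding sequence at an identity of at least 90% numbered 665 in the deposited tables, and they belonged to 73 of the 80 members. Of these copies, 625 were annotated as processed pseudogenes and 16 as protein-coding genes, and 27 averaged at least 300 counts per library. The copies held 19.7% of the counts of members and copies together in HOM, 19.8% in HET and 19.8% in WT (SD 0.108, 0.228 and 0.184 percentage points over the 10, 6 and 6 libraries).

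The copies were not spread evenly. For 54 members less than 10% of the counts lay on copies, while for 15 members over 50% did. Rps27, a zinc-finger protein of the small subunit, was the extreme case: it was listed at 0 in all 22 libraries, and Rps27rt, a protein-coding gene on chromosome 9, averaged 2746 counts. Rps27 lies on chromosome 3 (GRCm38 chr3:90212522-90213651, minus strand). Its 255 coding bases and those of Rps27rt (chr9:114982366-114982739, minus strand) are the same letter for letter, and are shown because no read within them can tell the genes apart.

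Rps27 and Rps27rt coding sequence: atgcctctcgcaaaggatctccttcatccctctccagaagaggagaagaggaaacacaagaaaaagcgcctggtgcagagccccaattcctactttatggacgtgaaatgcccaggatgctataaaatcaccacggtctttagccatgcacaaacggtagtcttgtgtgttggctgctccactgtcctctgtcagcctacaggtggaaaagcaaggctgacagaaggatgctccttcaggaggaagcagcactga

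Rps6, the small subunit protein that S6 kinases phosphorylate, had 92.6% of its family's counts on copies, nearly all of them on Rps6-ps4, which averaged 8293 counts against 667.6 for Rps6 itself. The share on copies was 91.7% for Rpl27, with Gm11518 leading, and 90.7% for Rpl31, with Rpl31-ps8 leading; Rpl31 lies near the exit of the peptide tunnel. It was 90.3% for Rpl5, a protein that carries a small ribosomal RNA into the large subunit (Gm15500), and 90.3% for Rpl12, a protein at the base of the stalk (Gm10275). It was 85.2% for Rps13, 85.0% for Rpl10a, 85.0% for Rpl27a and 84.6% for Rpl28. The rest of the 15 were Rps23 (73.2%), Rpl10 (69.3%), Rpl21 (68.9%), Rpl15 (64.6%) and Rps28 (59.4%). In 13 of the 15 the leading copy was identical to the member over the aligned coding sequence, of which at least 99.31% aligned in all 15.

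Rps23, a protein of the decoding centre, was the exception among the 15 that lay below 98% identity. Its leading copy Gm9701, a processed pseudogene on chromosome 3, averaged 4668 counts against 1712 for Rps23 on chromosome 13, and differed from it at 13 of 429 aligned columns.

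Whether the counts listed on copies came from transcripts of the copies was not tested, and the share of each count that rests on reads matching several genes is not given in the tables.

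**Figure D1:**
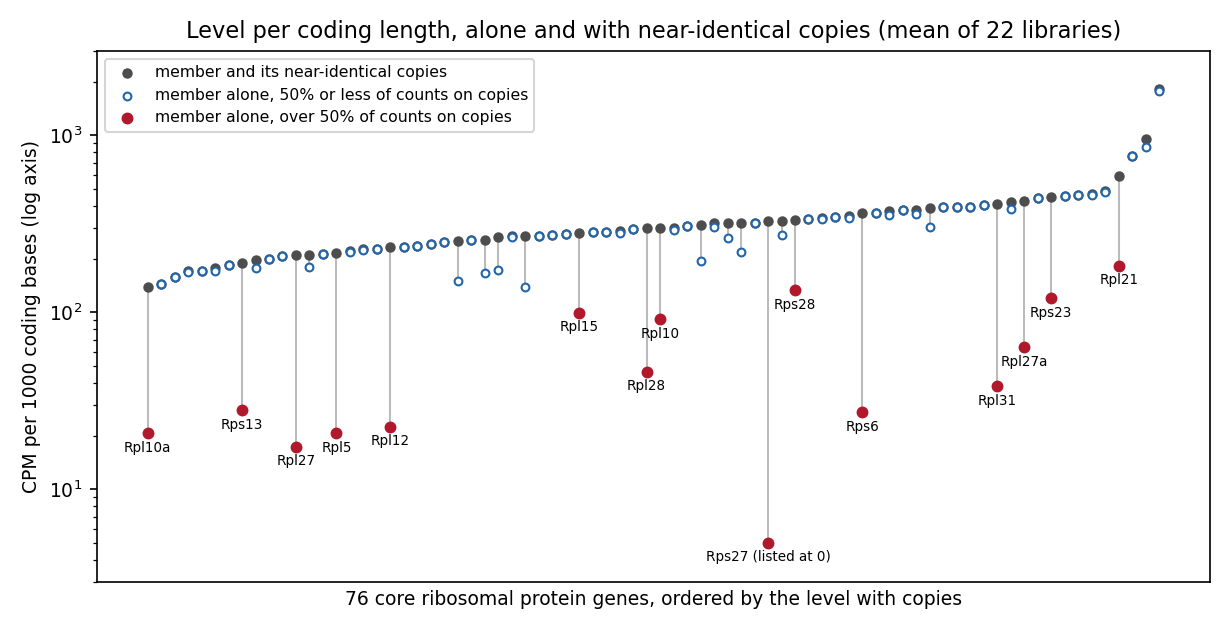
Level of the 76 core members as CPM per 1000 coding bases (mean of 22 libraries, log axis), for each member alone (open blue, or red where copies held over 50% of the counts) and with its near-identical copies (grey). The red genes lay far below the others alone and among them once copies were added; Rps27, listed at 0, is drawn at 5.

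Levels between genes were compared per length. The length used was that of the coding sequence, while counts cover the whole transcript. Alone, the 76 core members ran from 0 (Rps27) to 1783 CPM per 1000 coding bases (Rpl41). The 90th percentile was 10.0 times the 10th. Rpl41 has the shortest coding sequence, 78 bases against a mean transcript length of 560, and ranked 12 by TPM. With the copies added, they ran from 139 (Rpl10a) to 1836 (Rpl41), and the 90th percentile was 2.33 times the 10th. Of the 16 core members with the lowest TPM, 13 had over 50% of the counts on copies, against 2 of the 60 others. Rps20 and Rpl35 were among the other 3, and no count lay on a copy of Rps20. The copies were set after the low levels of some members had been seen, so these values describe the tables.

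By TPM, which is scaled to transcript length, the leading member was Rplp1, an acidic protein of the stalk that binds the translation GTPases. It ran from 1769 to 2206 TPM in HOM (median 1900), from 1725 to 2006 TPM in HET (median 1964) and from 1775 to 1935 TPM in WT (median 1797). Rpl13a followed, with medians of 1774 TPM in HOM, 1761 TPM in HET and 1726 TPM in WT, and then Rps29, with medians of 1802, 1809 and 1658 TPM in HOM, HET and WT. The range of each of these 3 genes overlapped between all groups. Rplp1 stood above Rps29 in all 22 libraries, while the order of the medians of Rpl13a and Rps29 was not the same in every group. Rps24, Rps21, Rpl23a, Rps15 and Rpl38 came next, with means over all libraries from 1432 TPM for Rps24 to 1118 TPM for Rpl38. Rplp0, the stalk protein that anchors Rplp1 and Rplp2, had a mean of 280 TPM, and Rplp2 285 TPM. At the low end of the members tested stood Rpl12 (26.4 TPM), Rpl5 (29.1), Rpl31 (29.7) and Rpl27 (31.2), all with over 90% of their counts on copies, and the paralogue Rpl3l (0.553).

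The paralogues were at or near 0 but for Rps27l. Rpl10l, the autosomal copy of X-linked Rpl10 that is known from testis, had 1 count in 1 library. Rpl39l, also known from testis, had 26 counts over 15 libraries and at most 4 in any of them. Rpl3l, which takes the place of Rpl3 in striated muscle, ran from 0.167 to 0.474 CPM in HOM (median 0.342), from 0.0971 to 0.295 CPM in HET (median 0.244) and from 0.153 to 0.374 CPM in WT (median 0.284). Rpl3 itself, a protein near the peptidyl transferase centre, averaged 477 CPM in HOM, 476 CPM in HET and 476 CPM in WT (SD 32.3, 14.8 and 22.6). Rps27l, a p53-responsive paralogue of Rps27, averaged 8.39 CPM in HOM, 8.04 CPM in HET and 8.33 CPM in WT (SD 0.800, 0.567 and 0.284), while Rps27 with its copies averaged 83.7 CPM in HOM, 83.8 CPM in HET and 83.6 CPM in WT (SD 6.84, 6.91 and 3.59). The X-linked parent Rps4x, whose retrocopy Rps4l was no member, averaged 185 CPM in HOM, 186 CPM in HET and 181 CPM in WT (SD 12.4, 7.27 and 3.41). Rpl10l, Rpl39l and Rps27 did not pass the filter on low counts, so 77 of the 80 members were tested, 30 of the small and 47 of the large subunit.

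The members together took 0.965% ± 0.0645 of all gene counts in HOM, 0.966% ± 0.0411 in HET and 0.936% ± 0.0399 in WT (SD, n = 10, 6 and 6). Single libraries ran from 0.891% to 1.08% in HOM, from 0.898% to 1.02% in HET and from 0.896% to 1.01% in WT, so the groups overlapped over nearly their whole range. Without HOM replicate 3, which was the highest of all, the HOM mean was 0.953%. By TPM the share was 3.97% ± 0.266 in HOM, 3.96% ± 0.214 in HET and 3.80% ± 0.158 in WT. With the copies the share of counts was 1.203% in HOM, 1.204% in HET and 1.167% in WT. The differences between group means were smaller than the SD of single libraries within HOM on each of these scales. By TPM, HOM and HET differed from WT by more than the SD within WT. An SD of single libraries does not measure the uncertainty of a mean, and no p was computed.

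The balance of the subunits was close to constant. Counts of small subunit genes over those of large subunit genes gave a ratio of 0.605 ± 0.00877 in HOM, 0.605 ± 0.00360 in HET and 0.600 ± 0.00533 in WT (SD). Single libraries ran from 0.592 to 0.618 in HOM, from 0.600 to 0.610 in HET and from 0.592 to 0.606 in WT. The titles of the libraries begin with 39992, 40411 or 40412, numbers the labels do not explain. Within 40412 the members' share averaged 0.974% in HOM (2 libraries), 0.970% in HET (5) and 0.919% in WT (3), and within 40411 it averaged 0.962% in HOM (3), 0.948% in HET (1) and 0.982% in WT (2). Within 39992 it averaged 0.964% in HOM (5) and was 0.896% in the only WT library, so HOM stood above WT in 2 of these 3 sets and below it in 40411.

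**Figure D2:**
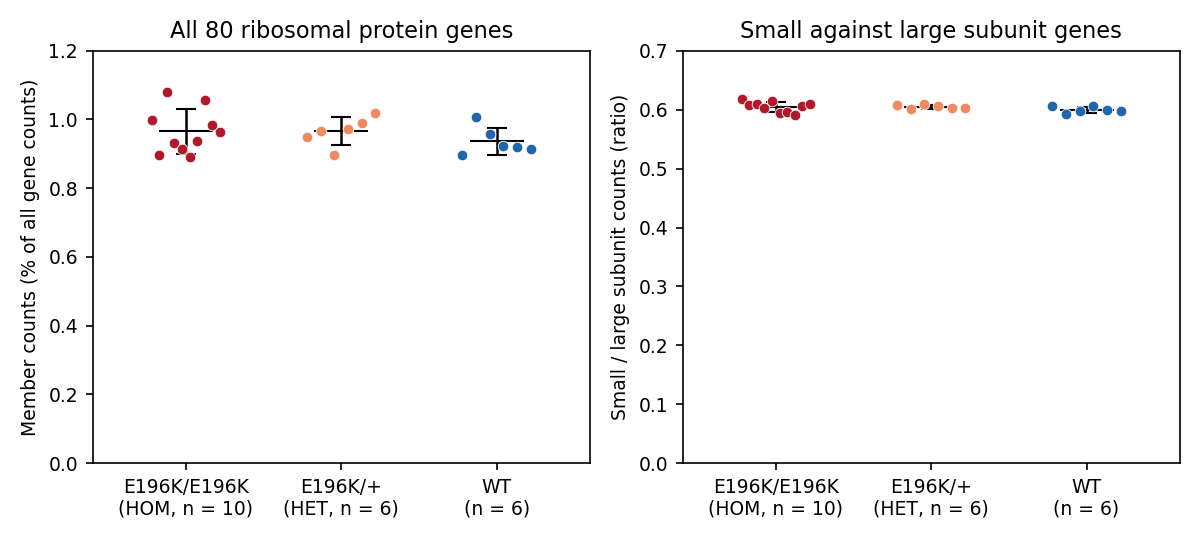
Members' counts as a percent of all gene counts (left) and the ratio of small to large subunit counts (right) in each library of HOM, HET and WT (left to right); the bars give the mean and SD. The HOM and HET means, 0.965% and 0.966%, lay above the WT mean of 0.936%, and the points of the groups overlapped.

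The members stood high or low together within a library. Libraries with most members above their median and libraries with most below occurred in each genotype. In WT only replicate 2 had most members above. In HOM replicate 8, 72 of the 77 tested members lay above their median over all libraries, and in HOM replicate 1 it was 71. In HOM replicate 6 only 7 did, and in HOM replicate 2 only 10. HET ran from 11 (replicate 3) to 69 (replicate 6) and WT from 12 (replicate 6) to 64 (replicate 2). The median log2 deviation of the members from those medians ran from -0.09 to 0.13 in HOM, from -0.06 to 0.09 in HET and from -0.04 to 0.06 in WT. Small and large subunit genes moved alike: in HOM replicate 8 their medians were 0.13 and 0.13, and in HOM replicate 2 they were -0.09 and -0.09.

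Other short genes and the mitochondrial ribosomal proteins, which are encoded by a separate gene set, ran over a narrower range. The 1572 other tested genes shorter than 1000 bases had medians from -0.04 to 0.05 over the 22 libraries, and the 77 mitochondrial ribosomal protein genes from -0.05 to 0.05. The other short genes had the sign of the members in every library but HOM replicate 3, HET replicate 2 and WT replicate 4. They stood at 0.04 in HOM replicate 8, 0.05 in HOM replicate 1 and 0.05 in HET replicate 6. In HOM replicate 2, HOM replicate 6 and HET replicate 3 they stood at -0.02, -0.03 and -0.04. In HOM replicate 3 the members stood at 0.11, while the other short genes stood at -0.01 and the mitochondrial set at -0.05. The Schwann cell and fibroblast markers above were high in the same library, and their part in that value was not tested. Because the members share each library's depth and scaling, they are not independent of one another.

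**Figure D3:**
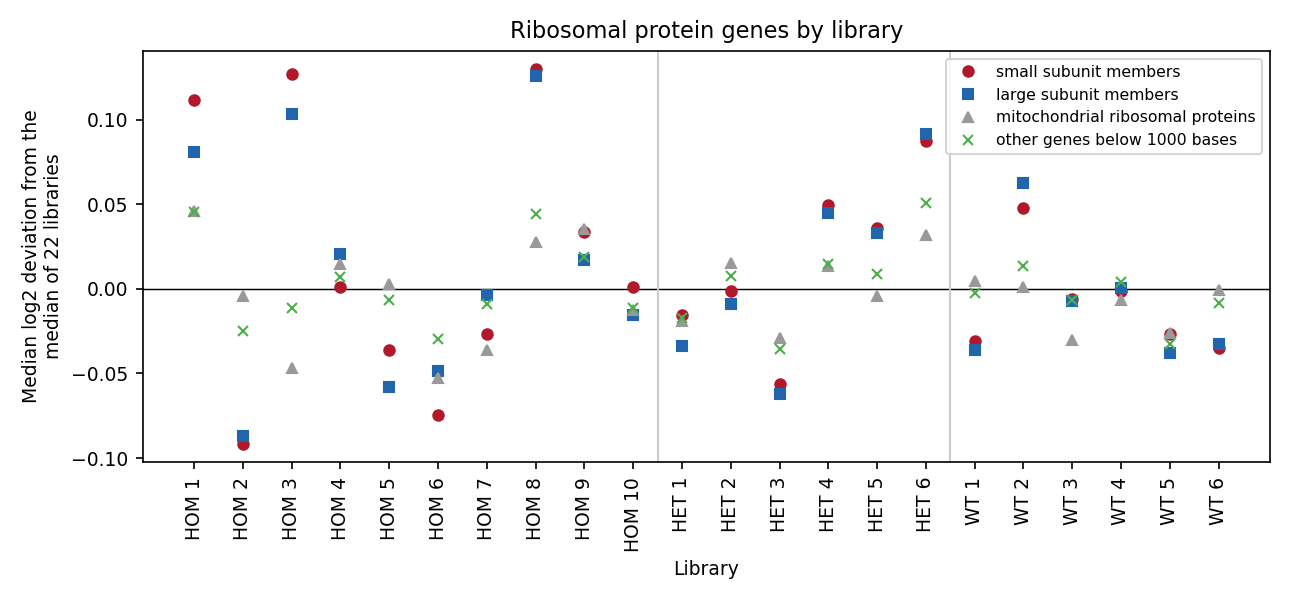
Median log2 deviation of each gene group from its median over 22 libraries, by library, for HOM, HET and WT (left to right): small subunit members (circles), large subunit members (squares), mitochondrial ribosomal proteins (triangles) and other genes below 1000 bases (crosses). Circles and squares lie together in each library, from about -0.09 in HOM 2 to 0.13 in HOM 8. Both signs occur in each genotype, though in WT only WT 2 lies clearly above 0.

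No member was called in HOM against WT by edgeR's quasi-likelihood test with Benjamini-Hochberg adjustment over 16974 genes, where 0.0943% of all genes tested were called (0.0884% higher and 0.00589% lower). The smallest adjusted p of a member was 0.815. None was called in HET against WT either, where 0% of all genes were called and the smallest adjusted p of a member was 1.00. In HOM against HET, where 0.106% of all genes were called (0.0766% higher and 0.0295% lower), it was again none, with a smallest adjusted p of 0.514. DESeq2, limma voom and limma-trend on log2(TPM + 1) also called no member in any of the 3 comparisons. At an unadjusted p below 0.05, 4 members were higher and 0 lower in HOM against WT, where 3.62% of all genes were higher and 2.3% lower (5.91% together). In HET against WT it was 0 members in either direction, where 1.69% of all genes were higher and 1.71% lower (3.41%). Between HOM and HET it was 1 member higher and 0 lower in HOM, where 4.55% of all genes were higher and 4.24% lower (8.8%).

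The intervals were narrow. The 95% interval of the fold change lay within 1.2-fold in either direction for 72 of 77 members in HOM against WT, 70 in HET against WT and 75 in HOM against HET, and within 1.5-fold for 76 in each. The median standard error of the log2 fold change over the members was 0.04 in HOM against WT, against 0.06 over all genes tested.

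Within that band more members lay above 0 than below in both comparisons with WT, which share the 6 WT libraries. In HOM against WT 65 of 77 had a log2 fold change above 0 (84.4%), where 53.7% of all genes did; the median was 0.03 over the members and 0.01 over all genes. In HET against WT it was 61 (79.2%, 51.9% of all genes), with a median of 0.02 over the members and 0.00 over all genes. In HOM against HET it was 46 (59.7%, 53% of all genes), with a median of 0.00505 over the members and 0.00497 over all genes. In HOM against WT 26 of 30 small subunit members and 39 of 47 large subunit members lay above 0, and in HET against WT 24 of 30 and 37 of 47. Over the other genes shorter than 1000 bases, 57.1% lay above 0 in HOM against WT, with a median of 0.01.

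Single libraries moved these summaries, so they are given as descriptions. Without HOM replicate 8 the median in HOM against WT was 0.0156, without HOM replicate 1 it was 0.0205, without HOM replicate 3 it was 0.0206 and 60 members lay above 0, and without WT replicate 5 it was 0.0215, where it was 0.0309 with all. It was 0.0431 without HOM replicate 2 and 0.0453 without WT replicate 2. In HET against WT it was 0.00673 without HET replicate 6, 0.0436 without HET replicate 3 and 0.0404 without WT replicate 2, where it was 0.0239 with all. In HOM against HET the number above 0 was 26 without HOM replicate 8, 28 without HET replicate 3, 30 without HOM replicate 3 and 64 without HET replicate 6, where it was 46 with all. The median in that comparison ran from -0.00917 without HOM replicate 8 to 0.0232 without HET replicate 6.

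Members were also counted by how much of their family's counts lay on copies. Of the 63 tested members with 50% or less on copies, 60 were above 0 and 3 below in HOM against WT; of the 14 with over 50%, 5 were above and 9 below. In HET against WT the counts were 56 above and 7 below, and 5 above and 9 below. Between HOM and HET they were 37 above and 26 below, and 9 above and 5 below. With each member summed with its copies, 75 of 78 lay above 0 in HOM against WT, 71 of 78 in HET against WT and 50 of 78 in HOM against HET, and for the members with most counts on copies it was 14 of 15, 13 of 15 and 10 of 15. No difference between these sets was tested, and no summed member was called.

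**Figure D4:**
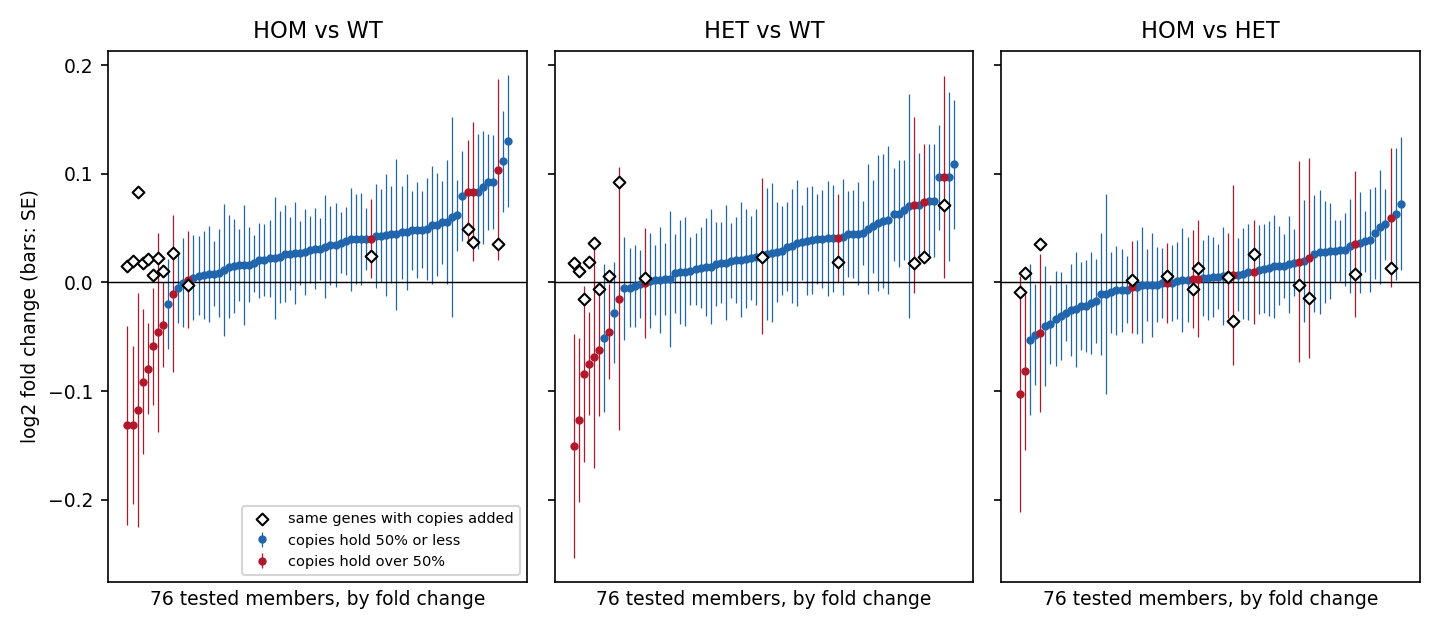
Fitted log2 fold change (points) with its standard error (bars) for 76 tested members in HOM vs WT, HET vs WT and HOM vs HET, ordered within each panel; Rpl3l is left out for scale. Red points are members with over 50% of the counts on copies, and diamonds are the same genes with copies added; most of the lowest points in the first 2 panels are red, and their diamonds lie near 0.

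Rps19, the gene most often changed in Diamond-Blackfan anaemia, a human failure of red cell production, had the largest fitted difference of the small subunit in HOM against WT. It ran from 67.7 to 94.3 CPM in HOM (median 80.9), from 73.8 to 80.04 CPM in HET (median 76.5) and from 65.8 to 83.7 CPM in WT (median 73.1). The 2 highest HOM libraries for Rps19 were replicates 3 and 1, which were also high for the members as a whole. For Rps19 the log2 fold change in HOM against WT was 0.13 (SE 0.0609, adjusted p = 0.815), and with its copies added in it was 0.03.

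Rps24 and Rps26, also Diamond-Blackfan genes, had log2 fold changes of 0.02 and 0.01 in HOM against WT (SE 0.0345 and 0.0405). Rps29, a small zinc-binding protein, led HET against WT with 151 ± 16.2 CPM in HET and 140 ± 8.22 CPM in WT (SD), a log2 fold change of 0.11 (SE 0.0591, adjusted p = 1.00) that was 0.05 without HET replicate 6. Rps9 and Rps3, both at the mRNA entry, had log2 fold changes of 0.07 (SE 0.0478) and 0.05 (SE 0.0291) in HET against WT, and neither passed. Rps15a, an assembly protein of the platform, had 0.05 in HOM against HET (SE 0.0327, adjusted p = 0.656). Rpsa, which is also known as a laminin receptor, had 0.04 in the same comparison (SE 0.0281, adjusted p = 0.717), and 0.02 without HOM replicate 3.

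Rps6 averaged 20.04 CPM in HOM, 21.2 CPM in HET and 20.2 CPM in WT (SD 1.43, 3.62 and 1.24). Its log2 fold change in HOM against HET was -0.08 (SE 0.0725, adjusted p = 0.775) and turned to 0.01 when its copies, which held 92.6% of the counts, were added. It was -0.01 without HET replicate 5 and -0.14 without HET replicate 6. Rps27a, made as a fusion with ubiquitin, had -0.04 in HOM against HET (SE 0.0362, adjusted p = 0.787), which was -0.0049 without HET replicate 6 and -0.0582 without HOM replicate 8. Rps3 had -0.03 in that comparison (SE 0.0260).

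Of the stalk, Rplp2 averaged 104 ± 7.31 CPM in HOM, 102 ± 6.59 CPM in HET and 97.3 ± 3.85 CPM in WT (SD). Relative to WT, Rplp2 in HOM had a log2 fold change of 0.09 (SE 0.0442, adjusted p = 0.815). Rplp1 had 0.05 in HOM against WT (SE 0.0351) and Rplp0 0.05 (SE 0.0470). Rplp0 stood at 227 CPM in HOM replicate 3, where the next HOM library had 182 CPM.

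Of the other large subunit members, Rpl14 had one of the smallest p in both comparisons with WT. It ran from 105 to 129 CPM in HOM (median 115), from 104 to 124 CPM in HET (median 115) and from 99.9997 to 116 CPM in WT (median 107). Relative to WT, the log2 fold change of Rpl14 was 0.09 in HOM (SE 0.0432, adjusted p = 0.815) and 0.10 in HET (SE 0.0482, adjusted p = 1.00). With Rpl14-ps1, which held 34.8% of the counts of the pair, these were 0.02 and 0.00.

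Rpl11, which with Rpl5 can bind the p53 regulator Mdm2, averaged 89.3 CPM in HOM, 92.4 CPM in HET and 87.7 CPM in WT (SD 5.85, 8.51 and 2.40), with a log2 fold change of -0.05 in HOM against HET (SE 0.0465, adjusted p = 0.795). Rpl13a had 0.03 in HOM against WT (SE 0.0367) and 0.03 in HET against WT (SE 0.0410). Rpl39, a protein that lines the tunnel, had 0.04 in HOM against WT (SE 0.0696) and 0.10 in HET against WT (SE 0.0778). The narrowest spread over the 6 WT libraries was that of Rpl19, which bridges the subunits, with a coefficient of variation of 1.12%, followed by Rps3 (1.13%) and Rpl35a (1.80%). The median coefficient over 75 tested core members was 6.54% in HOM, 5.52% in HET and 4.77% in WT.

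All 4 members with the smallest p among those below 0 in HOM against WT had most of their counts on copies. Rpl31 ran from 13.4 to 15.5 CPM in HOM (median 13.9), from 13.4 to 15.6 CPM in HET (median 14.2) and from 14.3 to 15.9 CPM in WT (median 15.0). Relative to WT, its log2 fold change was -0.08 in HOM (SE 0.0421, adjusted p = 0.815) and -0.07 in HET (SE 0.0472, adjusted p = 1.00). Together with its copies, Rpl31 averaged 156 CPM in HOM, 155 CPM in HET and 153 CPM in WT (SD 8.37, 6.71 and 5.76), with log2 fold changes of 0.02 and 0.02.

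Rpl27 had a log2 fold change of -0.13 in HOM against WT (SE 0.0723, adjusted p = 0.815) and -0.08 in HET against WT (SE 0.0812, adjusted p = 1.00). Without WT replicate 5 these were -0.09 and -0.04. With its copies Rpl27 had 0.02 and -0.02. Rpl5 had -0.09 in HOM against WT (SE 0.0669, adjusted p = 0.820) and -0.13 in HET against WT (SE 0.0752, adjusted p = 1.00). Without WT replicate 5 the values of Rpl5 were -0.04 and -0.07, and with its copies 0.02 and 0.01. The sign of Rpl31 and Rpl5 was thus opposite in both comparisons once the copies were added, and that of Rpl27 in HOM against WT.

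Rpl10, the product of an X-linked gene and one of the last proteins to join the large subunit in yeast, had -0.13 in HOM against WT (SE 0.0916, adjusted p = 0.819) and -0.15 in HET against WT (SE 0.103, adjusted p = 1.00). It ran from 51.3 to 65.5 CPM in HOM (median 58.7), from 51.3 to 66.4 CPM in HET (median 56.0) and from 49.9 to 87.0 CPM in WT (median 62.1), and its coefficient of variation in WT, 21.9%, was the largest of the core members. WT replicate 5 held the highest value, and without it the log2 fold changes were -0.02 and -0.04. With Rpl10-ps3 and the other copies, Rpl10 averaged 193 CPM in HOM, 194 CPM in HET and 191 CPM in WT (SD 11.5, 6.31 and 7.03), with a coefficient of variation in WT of 3.67%.

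**Figure D5:**
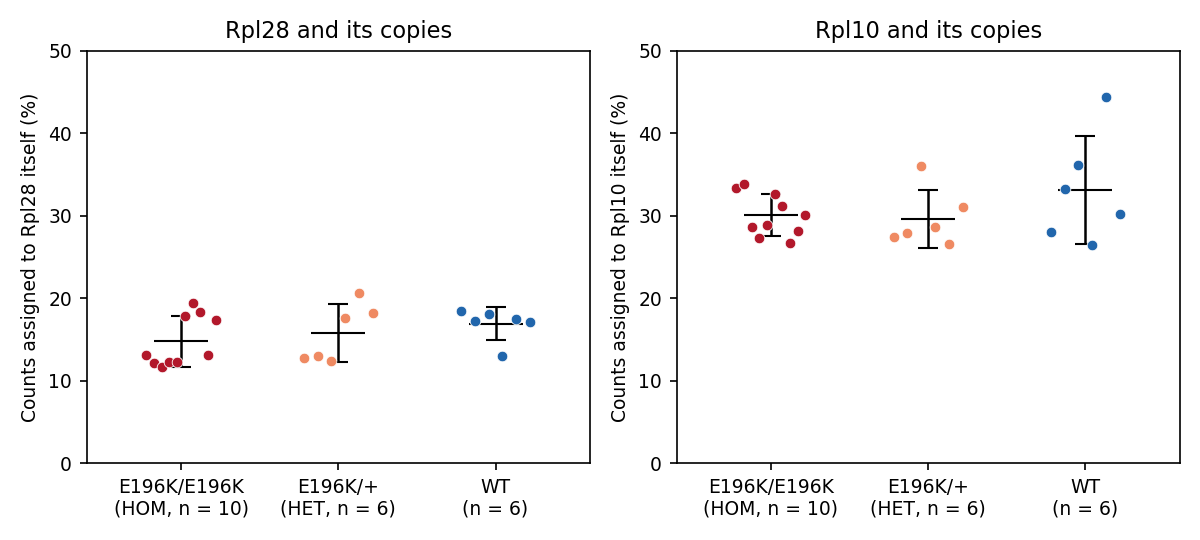
Percent of the counts of Rpl28 and its copies (left) and of Rpl10 and its copies (right) that were assigned to the member itself, in each library of HOM, HET and WT (left to right), with the mean and SD. Rpl28 falls into a low and a high set of libraries, and Rpl10 is highest in WT 5, at 44.4%.

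The paralogue Rpl3l was the member with the smallest p in HOM against HET. Its log2 fold change was 0.56 (SE 0.241, adjusted p = 0.514), and with a highest level of 0.474 CPM in any library it rested on few counts. HOM and HET overlapped, with 8 of 10 HOM libraries above the highest HET library. The highest level, in HOM replicate 6, stood beside a sum of 0.643 CPM for the skeletal muscle genes, while in HOM replicate 3, where those genes were high, Rpl3l had 0.426 CPM. Against WT, the log2 fold change of Rpl3l was 0.31 in HOM (SE 0.232, adjusted p = 0.821) and -0.25 in HET (SE 0.274, adjusted p = 1.00).

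The 6 ribosomal proteins outside the naming rule, among them Fau, Rps3a1 and the paralogues Rpl22l1, Rpl7l1 and Rpl36al, were all above 0 in both comparisons with WT and none was called. Fau, a fusion of a ubiquitin-like protein with a small subunit protein, averaged 42.9 CPM in HOM, 41.4 CPM in HET and 40.1 CPM in WT, with a log2 fold change of 0.10 in HOM against WT (SE 0.0479, adjusted p = 0.815). Rpl7l1 had 0.12 in HET against WT (SE 0.0432, adjusted p = 1.00).

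Other genes of ribosome production and use were counted in HOM against WT in the same way. Of 58 tested ribosome assembly factors 29 lay above 0 and 29 below, with a median of 0.00, and of 15 genes of RNA polymerase I transcription 8 lay above and 7 below. Of 34 translation initiation factors 16 lay above and 18 below, while 7 of 10 elongation factors and 14 of 20 genes of growth signalling lay above. The mitochondrial ribosomal proteins had 47 of 77 above 0 and a median of 0.01. In HET against WT 13 of 15 genes of RNA polymerase I transcription lay above 0, as did 38 of 58 assembly factors, 17 of 34 initiation factors, 7 of 10 elongation factors, 13 of 20 genes of growth signalling and 48 of 77 mitochondrial ribosomal proteins. No gene of these lists was called in either comparison with WT.

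In HOM against HET 1 gene of these lists was called, where 0.0295% of all genes were called lower: the assembly factor Nol8, with 18.1 CPM in HOM, 20.7 CPM in HET and 19.7 CPM in WT and a log2 fold change of -0.20 (SE 0.0402, adjusted p = 0.0441). The call was lost in 14 of 22 fits without 1 library, with an adjusted p of up to 0.127 without HET replicate 4, and the adjusted p was 0.608 in a fit that included the title prefix. The log2 fold change of Nol8 lay between -0.22 and -0.18 in the fits without 1 library and was -0.17 with the title prefix. Eif4ebp1, the translation repressor that mTOR phosphorylates, had 1.60 CPM in HOM, 1.17 CPM in HET and 1.10 CPM in WT, and a log2 fold change of 0.55 in HOM against WT that did not pass (SE 0.163, adjusted p = 0.588). Larp1, which binds the TOP motif, had a log2 fold change of 0.04 in HET against WT (SE 0.0289, adjusted p = 1.00).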

How the data were processed

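RNA was measured in 22 libraries of spinal cord. The libraries were poly(A)-selected with stranded kits, per the labels' protocols, which name 2 kits and do not say which library had which. The authors deposited RSEM gene tables with expected counts, TPM and FPKM for each library, per the file headers. Tools listed in the submitters' processing notes are Bowtie2 2.2.0 and RSEM 1.2.12. For build, annotation and strand use nothing was given in the sources used here. Reads of overlapping or near-identical genes may be split between them by the RSEM model. FPKM was not used.

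The deposited expected counts were rounded. edgeR 4.0.16 in R 4.3.3 was run with TMM scaling, filterByExpr by genotype and a robust quasi-likelihood fit of all 22 libraries, which left 16974 genes and 19 residual degrees of freedom. A call needed an adjusted p below 0.05 (Benjamini-Hochberg, over all of them). SEs were derived from the F statistic. CPM used TMM-adjusted totals, shares used plain totals, and deviations used log2(CPM + 0.5). The fit was tested on simulated data. Alternatives used DESeq2 1.42.0, limma 3.58.1 (voom, and trend on log2 of the deposited TPM + 1), other scalings, no filter, the 2 groups alone, the title prefix, named pseudogenes added, no paralogues, and leaving out each library.

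Positions are from GENCODE M21 (GRCm38), by Ensembl ID. Copies were found with blastn 2.17.0 after the data had been seen. Values by library or group were given for the members with the highest and lowest TPM, the paralogues and their parents, the 4 smallest p in each direction of each comparison, the widest and narrowest spread in WT, Diamond-Blackfan genes and the stalk, Rpsa, Rps6 and Rpl13a. Further members, copies and Larp1 were named after their values were seen. The members and lists were chosen with earlier results of these data known. A few genes and a sequence that fell under these rules are not reported here.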

Additional observations from a re-analysis of the deposited data

Results flagged for a closer look

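In 10 of 117 sets of values in 1 genotype, 1 library stood apart from the others. The sets were levels of named members, the members' share, the subunit ratio, and the shares of family counts on Rpl10 and Rpl28. Chance alone would give about 1 in 20 sets if they were independent. Members moved together within a library, so the sets were not independent. Rplp0 was highest in HOM replicate 3, at 226.8 CPM, where the next HOM library had 182 CPM, and in WT replicate 2, at 181 CPM, where the next WT library had 173 CPM. HOM replicate 3 is also the library with high Schwann cell and fibroblast markers, and their part in its Rplp0 value was not tested. WT replicate 2 was also highest of its group for Rpl13a, at 297 CPM, and for Rpl35a, at 124 CPM. HOM replicate 8, in which 72 of 77 members lay above their median, was highest of its group for Rpl3, at 554 CPM, and for Rpl39, at 50.8 CPM. Rps9 was lowest in WT replicate 1, at 153 CPM, where the next WT library had 183 CPM, and without that library its log2 fold change in HET against WT was 0.02 instead of 0.07. Rpl3l was lowest in HET replicate 3, at 0.0971 CPM, and the only count of Rpl10l gave HOM replicate 1 a level of 0.0273 CPM. An only count is flagged in this way whatever its level. The share of the Rpl28 family's counts assigned to Rpl28 itself was lowest among WT libraries in WT replicate 4, at 13.0%, where the next WT library had 17.1%.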

How the results depend on the processing

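No member was called in any of the 3 comparisons under any alternative that was run. Calls over all genes did move: with DESeq2 they were 28 in HOM against WT, 0 in HET against WT and 76 in HOM against HET, against 16, 0 and 18 with edgeR. They were 11 in HOM against HET by limma-trend on TPM and 10 once the title prefix was a covariate, and leaving out 1 library gave 10 to 39 there (39 without HOM replicate 10) and 12 to 19 in HOM against WT. Of 768 values of named members under the alternatives, 750 kept their sign and 18 turned, 17 of them where copies were added. With named pseudogenes added, the log2 fold change in HOM against WT was 0.0175 for Rpl31, 0.148 for Rpl27 and 0.0112 for Rpl10, and with all near-identical copies it was 0.0213, 0.0195, 0.0152 and, for Rpl5, 0.0177. In HET against WT the values with named pseudogenes were 0.0154 for Rpl31, 0.0142 for Rpl10 and 0.545 for Rpl27, and with all copies 0.0192 for Rpl31, 0.0179 for Rpl10 and 0.0102 for Rpl5. In HOM against HET, Rps19 had -0.00797 with named pseudogenes and -0.00786 with all copies, Rps6 had 0.0088 and 0.00887, and Rpl11 ran from -0.0802 without HET replicate 3 to 0.000178 without HET replicate 6. The cause of these turns was not tested.

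The members' share of counts was 3.97% in HOM, 3.96% in HET and 3.80% in WT by TPM, 1.08%, 1.08% and 1.04% with named pseudogenes, and 1.203%, 1.204% and 1.167% with all copies. The WT share was 0.896% in the library of title prefix 39992 and 0.982% in those of 40411. The ratio of small to large subunit counts was 0.712 in HOM, 0.711 in HET and 0.707 in WT by TPM, and 0.585, 0.586 and 0.582 with all copies. It was 0.611 in HET and 0.607 in WT with named pseudogenes, 0.594 in HOM within prefix 40411 and 0.606 in WT within 39992. HOM and HET stood above WT by both measures on each of these scales over all libraries. Within prefix 40411 HOM stood below WT by both measures, with a ratio of 0.5939 in HOM and 0.5950 in WT. The ratio in HOM averaged 0.611 within 39992 and 0.608 within 40412. Leaving out 1 library, the number of members above 0 was 56 to 67 in HOM against WT, 49 to 66 in HET against WT and 26 to 64 in HOM against HET. The depth of 24448509 counts or more per library left few counts on Rpl3l alone among the tested members. For the 15 members named above most counts lay on copies. How far the assignment of reads among copies limits their values was not tested. No paired analysis was possible because the replicate numbers follow the order of deposition and pair no libraries.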

Other observations

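The share of family counts assigned to Rpl28 itself, a protein of the large subunit that budding yeast lacks, fell into separate ranges. It was between 11.7% and 13.2% in 10 libraries, which were HOM replicates 1 to 5 and 9, HET replicates 1 to 3 and WT replicate 4. It was between 17.1% and 20.6% in the other 12 libraries, and no library lay between. Over genotypes it averaged 14.8% in HOM, 15.7% in HET and 16.9% in WT (SD 3.06, 3.50 and 1.97), and both ranges held libraries of each genotype. The 5 HOM libraries of title prefix 39992 all lay in the lower range, and the 3 HOM libraries of 40411 all in the higher. Both ranges held libraries of each prefix, and a link with the prefix was not tested. The summed level of Rpl28 and its copies averaged 125 CPM in HOM, 126 CPM in HET and 118 CPM in WT (SD 9.43, 6.05 and 7.51). Its leading copy, Rpl28-ps1 on chromosome 1, is identical to it over the whole coding sequence and averaged 3307 counts, against 626 for Rpl28. For Rpl10 the share lay between 26.4% and 36.1% in 21 libraries and at 44.4% in WT replicate 5.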
